A study of Homo sapiens with 12 samples.

Results

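The DNA damage response genes described here are 42 of the 20531 genes measured in SKBR-3 cells. They were taken by gene symbol from a list of sensors, kinases and repair enzymes. Of these, 24 act in homologous recombination or the Fanconi anemia pathway, and 18 act in end joining, mismatch repair, break sensing or checkpoint signaling. The members and the further lists below were chosen with earlier results of these data known, so their shares beside all genes are descriptive. SKBR-3 is an established HER2-amplified breast carcinoma cell line, and polyadenylated RNA was sequenced from 4 groups of 3 libraries each. Cells received a pool of non-targeting (NT) siRNA or a pool of siRNA against FOXA1, a pioneer transcription factor of luminal epithelium, and then vehicle (DMSO) or 300 nM lapatinib, a kinase inhibitor of HER2 and EGFR, for 24 h. The labels give 48 h of siRNA before the drug and the study's methods give 24 h. siRNA pools lower a transcript without removing the gene, so FOXA1 siRNA cells keep some FOXA1. The design asks how HER2 inhibition changes transcription and how much of that change depends on FOXA1. All groups come from 1 cell line and nothing in the labels describes the replicates as separate cultures, so the p-values measure only the spread between these libraries, which may be technical. Counts are given as normalized counts, which are the deposited expected counts divided by relative library size, and a gene was called changed at an adjusted p under 0.05 by the quasi-likelihood test of edgeR, with p-values adjusted by Benjamini and Hochberg's method over all genes tested.

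Cells repair broken chromosomes mainly by joining the ends directly or by homologous recombination, which copies the intact sister chromatid and therefore works in cells that have replicated their DNA. The Fanconi pathway removes crosslinks that hold the DNA strands together: a core complex attaches ubiquitin to the FANCD2 and FANCI pair, and the lesion is then handed to recombination enzymes. Mismatch repair corrects copying errors, while the kinases ATM and ATR sense damage and signal through CHEK2 and CHEK1 to halt the cell cycle. Many recombination genes are transcribed as cells enter S phase, whereas the DNA-PK subunits of end joining are abundant throughout the cell cycle.

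Library totals ran from 25749578 to 32271850 expected counts (median 30542429), and each of the 42 members passed the filter of 10 counts in at least 1 library in every comparison. FOXA1 itself (gene ID 3169, chr14:37589552-37595249) stood at 8420, 8400 and 8749 normalized counts with NT siRNA in DMSO and at 1165, 1370 and 1571 with FOXA1 siRNA. It was thus lower in every FOXA1 siRNA library, with a log2 fold change of -2.63 ± 0.10 (adjusted p = 4.55e-06), and with lapatinib it stood at 12650, 12020 and 13110 with NT siRNA and at 1641, 1892 and 2376 with FOXA1 siRNA. The number 2 library stood apart in each of the 4 groups, with a chi-square per degree of freedom of 12.1 to 17.6 against its group mates, compared with 3.62 to 5.68 between numbers 1 and 3. The luminal keratins KRT8, KRT18 and KRT19 and the HER2 amplicon genes ERBB2, GRB7 and STARD3 were abundant in all 12 libraries, at 241 to 6105 TPM (transcript abundance scaled for transcript length and library), as was EPCAM at 176 to 300.4 TPM. CDH1, also listed as an epithelial marker, was at 0.03 to 0.25 TPM. Of 10 stromal, endothelial and immune markers, 8 stayed under 1 TPM in all libraries, and COL1A1 (2.74 to 5.58 TPM) and CD68 (14.8 to 42.5 TPM) were higher. These 10 summed to 20.8 to 31.1 TPM in the NT DMSO group, 32.2 to 42.7 in NT lapatinib, 26.1 to 34.6 in FOXA1 siRNA DMSO and 35.3 to 47.2 in FOXA1 siRNA lapatinib, and their part in the results was not tested.

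In untreated control cells the end-joining, mismatch repair and checkpoint genes were the more abundant set per transcript length. Their median was 30.3 TPM (6.87 to 346), compared with 9.81 TPM (2.98 to 41.99) for the homologous recombination and Fanconi genes. The most abundant members were XRCC6, the Ku70 subunit, at 346 TPM, NBN, which recruits ATM to breaks, at 329.7 TPM, and XRCC5, the Ku80 subunit, at 225 TPM. The least abundant were FANCB, a core complex subunit, at 3.35 TPM, and EME1, a partner of the MUS81 nuclease, at 2.98 TPM. With lapatinib the median of the homologous recombination and Fanconi set was 3.27 TPM and that of the other set 17.7 TPM.

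After lapatinib most of the repair genes were lower, and the median fall was larger among the homologous recombination and Fanconi genes than among the rest. With NT siRNA, 33 of the 42 members fell (78.6%, compared with 29.2% of the 13713 genes tested), 3 rose (7.14%, compared with 30.5% of genes tested) and 6 were not called. At least 2-fold falls were found in 23 members (7.13% of genes tested fell this far), and no member rose that far (6.64% of genes tested). In the homologous recombination and Fanconi set 22 of 24 genes fell, 18 of them at least 2-fold, and none rose with edgeR on all 6 libraries, with DESeq2 or at an unadjusted p under 0.05 (0 genes), and the median log2 fold change was -1.67. In the end-joining, mismatch repair and checkpoint set 11 of 18 genes fell, 5 of them at least 2-fold, and 3 rose, with a median of -0.36. The median of all genes tested was 0.03. With the number 2 libraries left out of both groups, 34 members fell and 4 rose, with FANCF as the fourth (log2 fold change 0.26, adjusted p = 0.0320), and the medians were -1.99 and -0.41 (an alternative added after seeing the data, here and below). The share of all genes called without the number 2 libraries is not given, here or below, so these counts cannot be set against it. In bulk RNA, fewer cells that express a gene and less of its RNA per cell cannot be told apart.

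**Figure D1:**
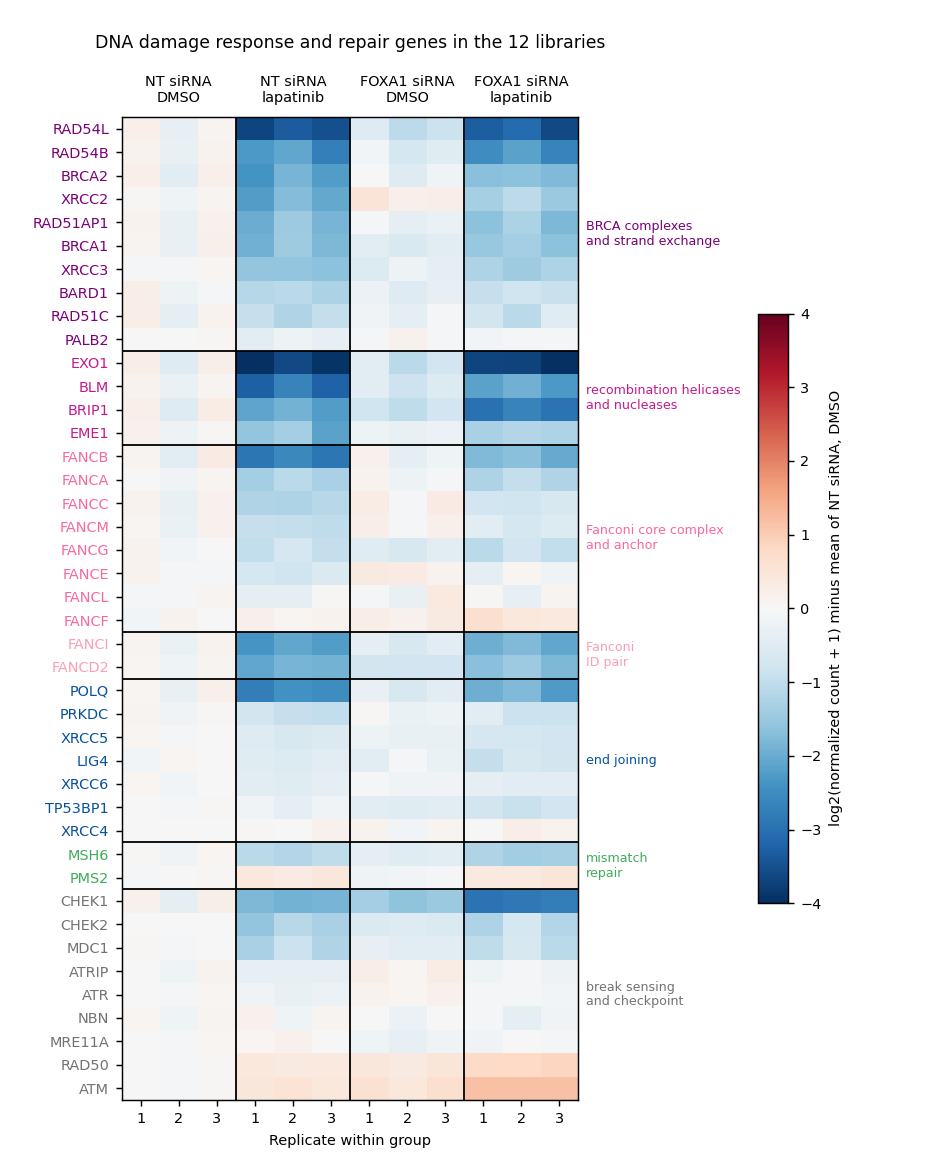
Each row is 1 of the 42 genes, grouped and colored by role, and each column is 1 of the 12 libraries; color gives log2(normalized count + 1) minus the mean of the 3 NT siRNA, DMSO libraries, from -4 (blue) to 4 (red). The strand exchange rows are blue in both lapatinib groups, palest for PALB2, whereas ATM and RAD50 are red there and in the FOXA1 siRNA, DMSO group, and PMS2 is red in the lapatinib groups.

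Among the strand exchange genes all 10 fell, 9 of them at least 2-fold. RAD54L, the translocase that drives strand invasion (gene ID 8438, chr1:46247688-46278473), was at 1036, 703 and 970.1 normalized counts in the DMSO libraries and at 68.8, 88.4 and 76.5 in the lapatinib libraries. Every lapatinib library was far below every DMSO library, a log2 fold change of -3.49 ± 0.18 (11.3-fold lower, adjusted p = 3.27e-06). RAD54B, its paralog, went from 179, 131 and 179.9 to 32.0, 37.3 and 23.5, also without overlap (log2 fold change -2.36 ± 0.22, adjusted p = 4.29e-05). BRCA2, which loads the recombinase onto single-stranded DNA, averaged 782 ± 183 (SD, n = 3) in DMSO and 173 ± 33.9 in lapatinib (log2 fold change -2.14 ± 0.20). BRCA1, the ubiquitin ligase that promotes end resection, averaged 811 ± 146 and 247 ± 45.6 (-1.68 ± 0.17), and BARD1, its obligate partner, 859 ± 139 and 381 ± 23.6 (-1.14 ± 0.12). The recombinase cofactors RAD51AP1 (-1.73), XRCC2 (-1.97), XRCC3 (-1.57) and RAD51C (-1.02) each fell at least 2-fold by their log2 fold change. PALB2, which bridges BRCA1 and BRCA2, fell least (-0.28 ± 0.08, adjusted p = 0.0158), and its call was lost without NT lapatinib replicate 1 (adjusted p = 0.0581) or replicate 3 (0.0529).

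All 4 recombination helicases and nucleases fell at least 2-fold. EXO1, the exonuclease that resects broken ends and also serves mismatch repair (gene ID 9156, chr1:241847986-241889939), had the largest fall of the 42 members, from 1895, 1103 and 1818 to 94.9, 128 and 101 normalized counts. The lapatinib libraries lay close together and far below all DMSO libraries, of which replicate 2 was the lowest (log2 fold change -3.85 ± 0.23, 14.5-fold, adjusted p = 6.32e-06). BLM, the Bloom syndrome helicase (gene ID 641, chr15:90717346-90816166), went from 892, 682 and 879 to 83.0, 126 and 85.7. This was 8.08-fold lower (log2 fold change -3.01 ± 0.18, adjusted p = 5.77e-06), with no overlap. BRIP1, the BRCA1-associated helicase, went from 399, 239.6 and 423 to 79.5, 91.3 and 71.5 (-2.09 ± 0.23, adjusted p = 9.77e-05), and EME1 averaged 102 ± 13.1 and 31.6 ± 8.53 (-1.66 ± 0.23).

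In the Fanconi pathway both members of the FANCD2 and FANCI pair fell about as far as BRCA2, and 6 of 8 core complex and anchor genes fell. FANCD2 (gene ID 2177, chr3:10026437-10101932) was at 1491, 1251 and 1537 in DMSO and at 339, 389.9 and 384 in lapatinib. All lapatinib libraries were below all DMSO libraries (log2 fold change -1.91 ± 0.10, adjusted p = 3.71e-06), as they were for FANCI, at 3148, 2468 and 3275 against 572, 701 and 621 (-2.20 ± 0.12, adjusted p = 4.46e-06). FANCB, the X-linked core subunit, had the largest fall of the core complex, from 171, 115 and 197 to 20.2, 25.5 and 20.4. Its lapatinib libraries were all far below those in DMSO (-2.82 ± 0.25, adjusted p = 3.49e-05). FANCA, the subunit most often mutated in Fanconi anemia, went from 420.3, 374 and 449 to 161, 194 and 169, again with no overlap (-1.21 ± 0.12, adjusted p = 5.00e-05). The other core subunits that fell were FANCC (-1.17), FANCG (-0.83) and FANCE (-0.67), together with FANCM (-0.95), the translocase that anchors the complex to DNA. FANCL, its ubiquitin ligase subunit, was at 237, 234 and 263 in DMSO and 191, 187 and 250.1 in lapatinib (-0.19 ± 0.14, adjusted p = 0.263), and FANCF averaged 291 ± 26.8 and 321 ± 14.7 (0.18 ± 0.10, adjusted p = 0.171). The groups overlapped for both genes.

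The promoters of the members were read because many genes switched on at S phase entry carry binding sites of E2F transcription factors near their start. In the RefSeq promoters of build GRCh38.p14, from 250 bases before to 50 after 1 annotated start per gene, 37 of the 42 members were matched by gene ID. For EXO1 this start lies inside the gene position printed above, not at its edge. RAD54B, FANCI, PRKDC, XRCC5 and NBN were not matched, so their promoters were not searched. The E2F words TTTCCCGC, TTTCGCGC, TTTGCCGC and TTTGGCGC, searched on both strands, were found in 8 of these 37 (21.6%), compared with 908 of all 27305 promoters (3.3%). They were found in 5 of 22 homologous recombination and Fanconi promoters (22.7%) and in 3 of 15 others (20.0%). The cell cycle homology words TTTGAA and TTCGAA were found in 5 of 37 (13.5%, compared with 16.6% of all promoters), and the forkhead words GTAAACA and GTCAACA in none of 37 (5.7% of all promoters). The stretches around the matches are shown for the members whose values are given in every library, each 28 bases on the gene's strand with the matched word, or its reverse complement, in capitals.
EXO1 (chr1:241848198-241848225, + strand): aaggtcagccTTTCGCGCgctgtgtagg
FANCD2 (chr3:10026425-10026452, + strand): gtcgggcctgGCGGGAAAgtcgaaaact
XRCC2 (chr7:152676103-152676130, - strand): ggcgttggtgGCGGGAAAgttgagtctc
FANCA (chr16:89816802-89816829, - strand): ctacaccgcgGCGGCAAAgccaaacgca
MSH6 (chr2:47783138-47783165, + strand): tccccccagaTTTCCCGCcagcaggagc
PMS2 (chr7:6009132-6009159, - strand): gggaagtattTTTGCCGCcccgcccgga

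These genes did not share 1 response. EXO1 had the largest fall of the members (-3.85), MSH6 fell 2-fold (-1.06), and PMS2 rose (0.42). The remaining matches were in the promoters of FANCC (-1.17) and XRCC6 (-0.42), while RAD54L, BLM, BRCA1, BRCA2, POLQ and CHEK1 held none of the E2F words in this window. A match is a description of letters, and factor binding was not measured here.

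Of the end-joining genes 5 of 7 fell, but only POLQ fell at least 2-fold. POLQ, the polymerase of microhomology-mediated joining and a backup to recombination, was at 952, 729 and 1045 normalized counts in DMSO and at 132, 168 and 160.2 in lapatinib. All lapatinib libraries were lower (log2 fold change -2.53 ± 0.16, adjusted p = 6.79e-06). The genes of classical end joining had smaller estimates. PRKDC, the catalytic subunit of DNA-PK, went from 29350, 24650 and 28210 to 16600, 14350 and 13950, without overlap (-0.84 ± 0.09, adjusted p = 6.59e-05). The Ku subunits XRCC5 (-0.54) and XRCC6 (-0.42) and the ligase LIG4 (-0.45) fell by smaller amounts. XRCC4, the partner of LIG4, averaged 181 ± 3.27 and 190.3 ± 12.1 (0.11 ± 0.11, adjusted p = 0.415). TP53BP1, which shields ends from resection, averaged 2774 ± 103 and 2395 ± 194 and just missed the threshold (-0.18 ± 0.07, adjusted p = 0.0520; 0.00861 with the replicate block and 0.0364 with DESeq2).

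The mismatch repair genes moved in opposite directions. MSH6, which recognizes base mismatches, went from 4003, 3524 and 4047 to 1826, 1697 and 1894 (log2 fold change -1.06 ± 0.07, adjusted p = 9.16e-06). PMS2, the endonuclease of the MutL complex (gene ID 5395, chr7:5970925-6009106), went from 2326, 2410 and 2472 to 3188, 2984 and 3261. All PMS2 values were higher in lapatinib and all MSH6 values lower, and the rise of PMS2 was 0.42 ± 0.06 on the log2 scale (adjusted p = 0.000260). PMS2 has near-identical pseudogene copies that can share its reads, as do CHEK2, FANCD2 and XRCC6 in part, so the assignment of their counts is less certain.

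Break sensing and checkpoint genes moved in both directions. The effector kinases and the scaffold MDC1 fell at least 2-fold, the apical kinase ATR and its partner ATRIP fell slightly, and ATM and RAD50 rose. CHEK1, the kinase activated by ATR (gene ID 1111, chr11:125625136-125681124), was at 1679, 1143 and 1740 in DMSO and at 431, 401 and 408 in lapatinib (log2 fold change -1.85 ± 0.15, adjusted p = 2.40e-05). CHEK2, the kinase activated by ATM, was at 769.9, 784 and 802 and 259.8, 367 and 317 (-1.28 ± 0.12, adjusted p = 4.18e-05), and MDC1, which binds phosphorylated histone H2AX at breaks, at 2987, 2745 and 2957 and 1171, 1595 and 1253 (-1.08 ± 0.11, adjusted p = 6.51e-05). For these genes every lapatinib library was lower. ATM (gene ID 472, chr11:108223067-108369102) was at 1258, 1212 and 1297 in DMSO and at 1718, 1849 and 1684 in lapatinib, higher in all 3 lapatinib libraries (0.51 ± 0.06, adjusted p = 0.000163). RAD50, the structural subunit of the MRN complex (gene ID 10111, chr5:132556977-132646349), was at 1972, 1855 and 1976 and 2595, 2486 and 2525, also higher in all 3 (0.42 ± 0.05, adjusted p = 0.000191). In TPM, which are scaled for transcript length, ATM averaged 9.77 ± 1.36 in DMSO and 10.5 ± 1.26 in lapatinib, and RAD50 20.4 ± 0.50 and 26.7 ± 0.47. The rise of ATM was thus seen in counts but lay within the spread in TPM, and the cause of this gap was not tested. The other MRN subunits were not called: the nuclease MRE11A averaged 1418 ± 64.7 and 1503 ± 74.2 (0.12 ± 0.06, adjusted p = 0.144), and NBN averaged 24600 ± 2474 and 25410 ± 3190 (0.08 ± 0.10, adjusted p = 0.521). ATR (-0.20 ± 0.06, adjusted p = 0.0221) lost its call without NT DMSO replicate 1 or 3 or NT lapatinib replicate 2 or 3 (adjusted p = 0.0544 to 0.0653), and ATRIP (-0.31 ± 0.11, adjusted p = 0.0345) lost it without any of these or NT lapatinib replicate 1 (0.0601 to 0.118).

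Outside the 42 members, lists of further repair genes were read for the same comparison, in which 29.2% of all genes tested fell and 30.5% rose. Of 15 further recombination and Fanconi genes 10 were found by symbol, and the rest were not searched under other symbols. Of these 10, 8 fell and 2 rose (median log2 fold change -0.63): DNA2, a resection nuclease (-2.08), and UBE2T, the ubiquitin-conjugating enzyme of the Fanconi pathway (-1.97), fell most, and RAD52 (0.69) and the helicase HELQ (0.52) rose. Of 18 further end-joining and break response genes, 11 fell and 5 rose (median -0.36), with the largest falls in CLSPN, the adaptor that links ATR to CHEK1 (-4.61), and H2AFX, the histone variant phosphorylated at breaks (-1.64), and the largest rises in POLL (0.58) and NHEJ1 (0.57). Base excision and single-strand break repair showed 13 falls among 21 genes (median -0.40) and no rise with edgeR or DESeq2 (2 at an unadjusted p under 0.05, and 2 with the replicate block), led by the flap nuclease FEN1 (-2.39) and the glycosylase NEIL3 (-1.96). Nucleotide excision repair was near the share over all genes, with 6 falls and 6 rises among 18 genes (33.3% each, median -0.02), where ERCC2 (-0.85) and GTF2H4 (-0.44), both of transcription factor TFIIH, fell and ERCC5 (0.90) and DDB2 (0.89), a nuclease and a damage sensor, rose. Translesion synthesis was near it as well, with 3 falls and 2 rises among 9 genes (33.3% and 22.2%), led by the ubiquitin ligase RAD18 (-1.0) and MAD2L2 (-0.75), with POLI (0.60) and POLK (0.43) rising. Of 15 tested p53 targets that damage can induce, 4 fell and 5 rose (26.7% and 33.3%, again near the share over all genes, median 0.13): AEN (-1.30) and PLK3 (-1.09) fell most, and BBC3, which encodes the death effector PUMA (1.32), and TP53I3 (0.67) rose most.

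All 20 genes of a list of S phase and proliferation markers also fell with lapatinib (median -1.90), with E2F1 (-3.80) and RRM2 (-3.56), a ribonucleotide reductase subunit, falling most. As a mean over genes of log2(normalized count + 1), relative to the NT DMSO mean, this list was at 0.16, -0.28 and 0.12 in the NT DMSO libraries and at -2.29, -2.07 and -2.21 in the NT lapatinib libraries. The 24 homologous recombination and Fanconi genes were at 0.11, -0.24 and 0.12 and at -1.76, -1.54 and -1.74 in the same libraries. Replicate 2 was thus the lowest DMSO library and the highest lapatinib library on both measures. The part of cell cycle phase in the response of the repair genes was not tested.

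With FOXA1 siRNA, lapatinib again lowered most repair genes, with smaller median falls. Again 33 of 42 members fell (compared with 29.1% of the 13745 genes tested) and 3 rose (29.0%), but 14 rather than 23 fell at least 2-fold (5.12% of genes tested; no member rose that far, 4.93%). The median log2 fold change was -0.99 over the homologous recombination and Fanconi set, where 21 of 24 fell, 12 of them at least 2-fold, and -0.32 over the other set, where 12 of 18 fell, 2 of them at least 2-fold, and 3 rose. The median of all genes tested was 0.01. The comparisons with NT and with FOXA1 siRNA share no library, and 32 members fell in both. Of the 35 members with a negative log2 fold change in both, the value was smaller in size with FOXA1 siRNA in 31, larger in 3 and equal in 1. The same split over all genes is not given. Over all genes tested, changes of at least 2-fold were also fewer with FOXA1 siRNA, at 704 falls and 678 rises compared with 978 and 910 with NT siRNA. Smaller responses were thus not limited to the members. ATM (0.62 ± 0.06), PMS2 (0.55 ± 0.05) and RAD50 (0.38 ± 0.05) rose here as well. With the replicate block FANCF was also higher (adjusted p = 0.0354) and NBN lower (0.00451). The calls of RAD51C (adjusted p = 0.0255), FANCE (0.0298), ATRIP (0.0171) and CHEK2 (0.0240) were each lost when single libraries were left out (adjusted p = 0.0517 to 0.102): without FOXA1 siRNA DMSO replicate 1 or FOXA1 siRNA lapatinib replicate 1 for all 4 genes, without DMSO replicate 2 for FANCE and CHEK2, without DMSO replicate 3 for RAD51C, ATRIP and CHEK2, without lapatinib replicate 2 for RAD51C, and without lapatinib replicate 3 for FANCE, ATRIP and CHEK2.

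**Figure D2:**
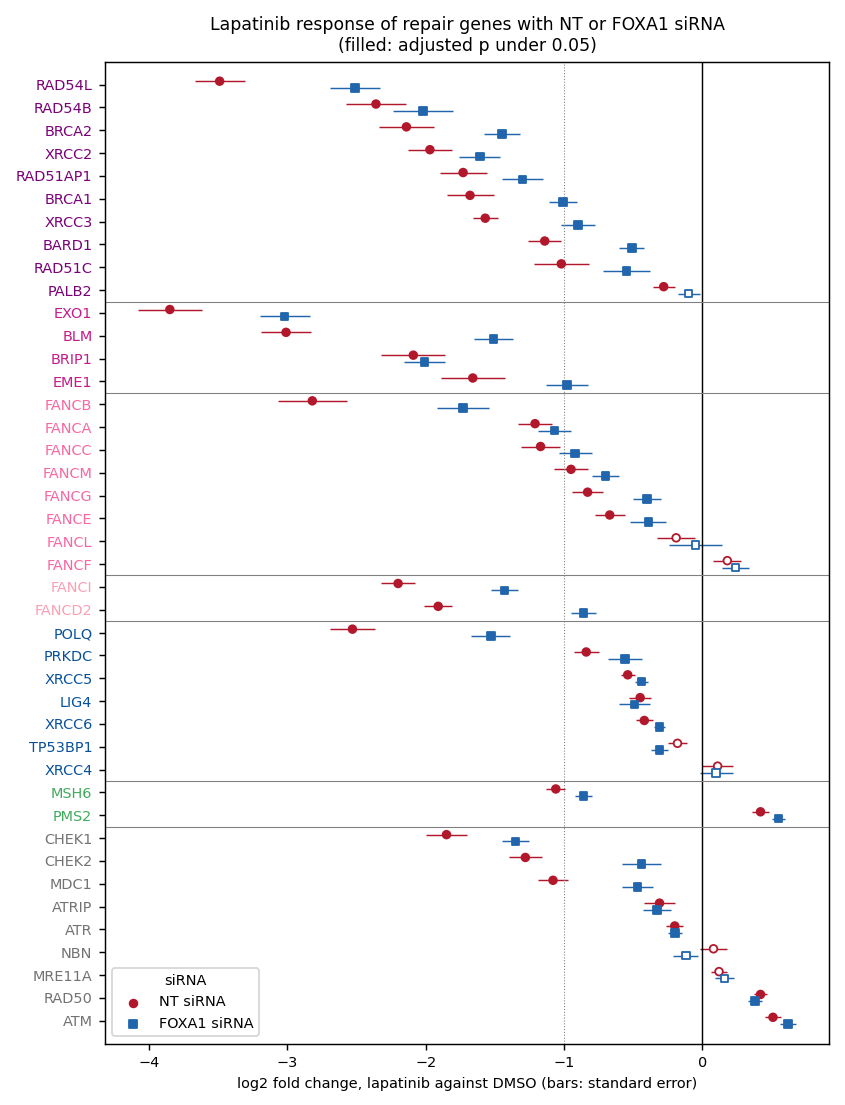
For each of the 42 genes (vertical axis, colored by role as in the map of libraries), the log2 fold change of lapatinib against DMSO is plotted with its standard error for NT siRNA (red circles) and FOXA1 siRNA (blue squares), filled where the adjusted p is under 0.05. BLM moved from -3.01 with NT siRNA to -1.51 with FOXA1 siRNA, whereas BRIP1 was at -2.09 and -2.01 and ATM and RAD50 stayed right of 0 with both.

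Whether these responses differed was tested over all 12 libraries with an interaction term. It was positive, a smaller fall with FOXA1 siRNA, in 8 members (3.99% of the 14012 genes tested were positive) and negative in none (3.20%), with 0 negative at an unadjusted p under 0.05. DESeq2 called 11 members positive and none negative, compared with 811 and 627 of all genes. With replicates blocked by number 14 members were positive and 1, NBN, was negative (adjusted p = 0.00660), compared with 1561 and 1292 of the 14012 genes tested. The interaction estimate was above 0 in 37 of 42 members, compared with 7161 of the 14012 genes tested. Its median was 0.47 over the homologous recombination and Fanconi set and 0.12 over the other set (0.01 over all genes). Of the 10 further recombination and Fanconi genes outside the members, 0 had a called interaction with edgeR, DESeq2 or the block (2 were positive at an unadjusted p under 0.05). Their median was 0.20, with 7 estimates above 0 and 3 below. The 8 members were FANCD2, BLM, XRCC3, FANCI, POLQ, CHEK2, BARD1 and MDC1. FANCD2, BLM and XRCC3 were called with any single library left out. The number of positive members was 3 without NT DMSO replicate 1 or 3, 14 without NT DMSO replicate 2, 4 without NT lapatinib replicate 1 or 3, 5 without FOXA1 siRNA DMSO replicate 3 or FOXA1 siRNA lapatinib replicate 1, and 21 without all number 2 libraries. The shares of all genes called positive in these fits are not given, so the counts cannot be set against them.

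BLM showed the largest difference. With FOXA1 siRNA it was at 607, 456 and 558 normalized counts in DMSO and at 182, 215 and 164 in lapatinib, where NT siRNA libraries had been at 892, 682 and 879 and 83.0, 126 and 85.7. FOXA1 siRNA libraries were lower than NT libraries in DMSO and higher than NT libraries in lapatinib, without overlap, and the interaction was 1.52 ± 0.25 (adjusted p = 0.00440). FANCD2 was at 859, 834 and 831 and 447, 523 and 408 with FOXA1 siRNA. Its fall was -0.86 with FOXA1 siRNA and -1.91 with NT siRNA, an interaction of 1.07 ± 0.14 (adjusted p = 0.00172). XRCC3, a recombinase paralog, was at 559.7, 558 and 608 and 189.8, 194 and 183 with NT siRNA and at 389, 503 and 435 and 246, 215 and 242 with FOXA1 siRNA. With FOXA1 siRNA its values were thus lower in DMSO and higher in lapatinib than with NT siRNA, without overlap (interaction 0.68 ± 0.14, adjusted p = 0.0152).

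For FANCI the FOXA1 siRNA libraries were at 2281, 1866 and 2137 in DMSO and 752, 869 and 691 in lapatinib (interaction 0.78 ± 0.18, adjusted p = 0.0211). POLQ was at 728, 579 and 675 and 231, 262 and 186 (1.01 ± 0.23, adjusted p = 0.0211). In DMSO all values of FANCI and POLQ with FOXA1 siRNA lay below those with NT siRNA, while in lapatinib they lay above for POLQ and overlapped for FANCI. CHEK2 was at 527, 549 and 520.1 and 334, 484 and 346 (0.85 ± 0.20, adjusted p = 0.0228). BARD1, at 1011, 739 and 827 and 386, 402 and 355 with NT siRNA, was at 719, 602 and 681 and 452, 485 and 456 with FOXA1 siRNA (0.65 ± 0.16, adjusted p = 0.0301). MDC1 was at 2286, 2111 and 2099 and 1437, 1847 and 1359 (0.62 ± 0.17, adjusted p = 0.0490). In lapatinib the FOXA1 siRNA libraries overlapped the NT libraries for CHEK2 and MDC1 and lay above them for BARD1, and for FANCI, CHEK2 and MDC1 they were higher within each of the 3 replicate numbers. Without single libraries the highest adjusted p was 0.0566 for FANCI (without NT DMSO replicate 1; also lost without NT DMSO 3 and NT lapatinib 1 or 3) and 0.0552 for POLQ (without NT lapatinib 1; also without NT DMSO 1 or 3 and FOXA1 siRNA lapatinib 1). It was 0.0599 for CHEK2 (without FOXA1 siRNA DMSO 3; also without NT DMSO 1 or 3, NT lapatinib 3 and FOXA1 siRNA DMSO 1), and BARD1 and MDC1 were called in 3 of 12 such fits each, with values up to 0.0819 (without NT lapatinib 3) and 0.118 (without NT lapatinib 3).

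Some of the deepest falls were not called different. EXO1 was at 1132, 738 and 923 and 122, 119 and 97.9 with FOXA1 siRNA, a fall of -3.02 ± 0.18, and its interaction was 0.85 ± 0.33 (adjusted p = 0.155). RAD54L missed the threshold (1.0 ± 0.28, adjusted p = 0.0535) and passed it with the replicate block (0.0180), as did BRCA1 (0.0771, with the block 0.0413), FANCB (0.0665, with the block 0.0287), CHEK1 (0.157, with the block 0.0477), PRKDC (0.327, with the block 0.0154) and MSH6 (0.201, with the block 0.0243). BRIP1 (0.10 ± 0.31), RAD50 (-0.03 ± 0.07), XRCC4 (0.01 ± 0.15) and ATRIP (-0.01 ± 0.14) had estimates near 0. The S phase list gave 5 positive interactions of 20 (median 0.56; 12 with the replicate block and 8 with DESeq2), with an estimate above 0 in 19. Its mean level was -0.73 in the FOXA1 siRNA DMSO group and -2.35 in the FOXA1 siRNA lapatinib group, compared with 0 and -2.19 with NT siRNA. The homologous recombination and Fanconi genes were at -0.26 and -1.39, compared with 0 and -1.68. In lapatinib the FOXA1 siRNA libraries thus lay higher in the mean than the NT libraries for these genes and lower for the S phase list. For the S phase list they were lower within each replicate number but the groups overlapped (-2.34, -2.21 and -2.49 against -2.29, -2.07 and -2.21). Its median log2 fold change there was 0.00, with 10 genes below 0 and 10 above.

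FOXA1 siRNA alone, in DMSO, gave smaller changes of the repair genes. Of the 42 members 18 fell (21.3% of the 13694 genes tested), 3 rose (21.9%) and 21 were not called, and CHEK1 was the only member to fall at least 2-fold (2.77% of genes tested; none rose that far, 4.06%). With the replicate block 25 fell and 9 rose, compared with 4129 and 4150 of the 13694 genes tested. The added falls were BRCA2, RAD51AP1, RAD54B, LIG4, PRKDC, XRCC6 and PMS2 (adjusted p = 0.00355 to 0.0255). With the number 2 libraries left out 23 members fell and 5 rose (share of all genes not given). In the homologous recombination and Fanconi set 10 fell and 1 rose (median log2 fold change -0.25), and in the other set 8 fell and 2 rose (median -0.17; -0.01 over all genes), and with the replicate block 5 rose in the former and 4 in the latter. Without NT DMSO replicate 2, the lowest of the NT DMSO libraries in these genes, the first median was -0.39. CHEK1 went from 1679, 1143 and 1740 normalized counts with NT siRNA to 581, 485 and 529 with FOXA1 siRNA, all lower (log2 fold change -1.51 ± 0.16, adjusted p = 0.000238). BRIP1 went from 399, 239.6 and 423 to 196, 168 and 204, also all lower (-0.89 ± 0.21, adjusted p = 0.00998). Further falls were in RAD54L (-0.81 ± 0.17), EXO1 (-0.78 ± 0.22), FANCD2 (-0.75 ± 0.08), BLM (-0.59 ± 0.14), CHEK2 (-0.55 ± 0.06), FANCG (-0.51 ± 0.09), FANCI (-0.49 ± 0.11), BRCA1 (-0.49 ± 0.13), TP53BP1 (-0.46 ± 0.05) and POLQ (-0.45 ± 0.14).

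The genes that rose with FOXA1 siRNA in DMSO were ATM, RAD50 and XRCC2. ATM was at 1902, 1696 and 1950 normalized counts with FOXA1 siRNA, all above the NT libraries (1258, 1212 and 1297; log2 fold change 0.57 ± 0.07, adjusted p = 0.000373). RAD50 was at 2639, 2488 and 2708, again all above 1972, 1855 and 1976 (0.44 ± 0.05, adjusted p = 0.000417). XRCC2, the recombinase paralog, was at 340.2, 276 and 288 against 248, 212 and 257 (0.34 ± 0.12, adjusted p = 0.0493). XRCC2 was higher in all 3 libraries but lost its call with DESeq2 (adjusted p = 0.0559), with no filter (0.0649), with all 12 libraries in 1 model (0.0792) and without any 1 of the 3 NT DMSO libraries or FOXA1 siRNA DMSO replicates 1 and 3 (0.0658 to 0.175). Among the fallen genes, BRCA1, BARD1, XRCC3, EXO1, POLQ and MRE11A lost their calls without NT DMSO replicate 1 or 3, and each also without 1 or more of FOXA1 siRNA DMSO replicates 1, 2 and 3 (adjusted p = 0.0504 to 0.149). Of the Fanconi core genes only FANCG fell, and the estimates of FANCC (0.20 ± 0.15), FANCE (0.27 ± 0.10), FANCF (0.27 ± 0.10) and FANCM (0.15 ± 0.13) were above 0 and passed the threshold with the replicate block (adjusted p = 0.0147, 0.0109, 0.0233 and 0.0465), as did ATR (0.14 ± 0.05, with the block 0.00557) and ATRIP (0.22 ± 0.11, with the block 0.0155).

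In lapatinib more members were higher than lower after FOXA1 siRNA. Of the 42, 13 were higher than with NT siRNA (22.7% of the 13727 genes tested) and 6 lower (22.2%), with 23 not called. CHEK1 was again the only member lowered at least 2-fold (3.90% of genes tested; none was raised that far, 4.51%). The homologous recombination and Fanconi set held 10 of the higher genes and 1 lower (median log2 fold change 0.27). The other set held 3 higher and 5 lower (median 0.03, compared with -0.01 over all genes). Of the 10 further recombination and Fanconi genes outside the members, 3 were lower and 0 higher (median -0.05). With the replicate block 20 members were higher (13 in the homologous recombination and Fanconi set and 7 in the other) and 8 lower. Of the 13727 genes tested, 4200 were higher and 4269 lower with the block. With the number 2 libraries left out 16 members were higher and 8 lower. The counts were smaller without NT lapatinib replicate 1 (8 higher, 3 lower) or 3 (7 and 3), without FOXA1 siRNA lapatinib replicate 1 (7 higher) and without FOXA1 siRNA lapatinib replicate 3 (3 lower). Shares of all genes called are not given for these fits or for the fit without the number 2 libraries. The 13 genes lowered by FOXA1 siRNA in DMSO but not in lapatinib are shown to differ between the drugs only where the interaction was called.

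**Figure D3:**
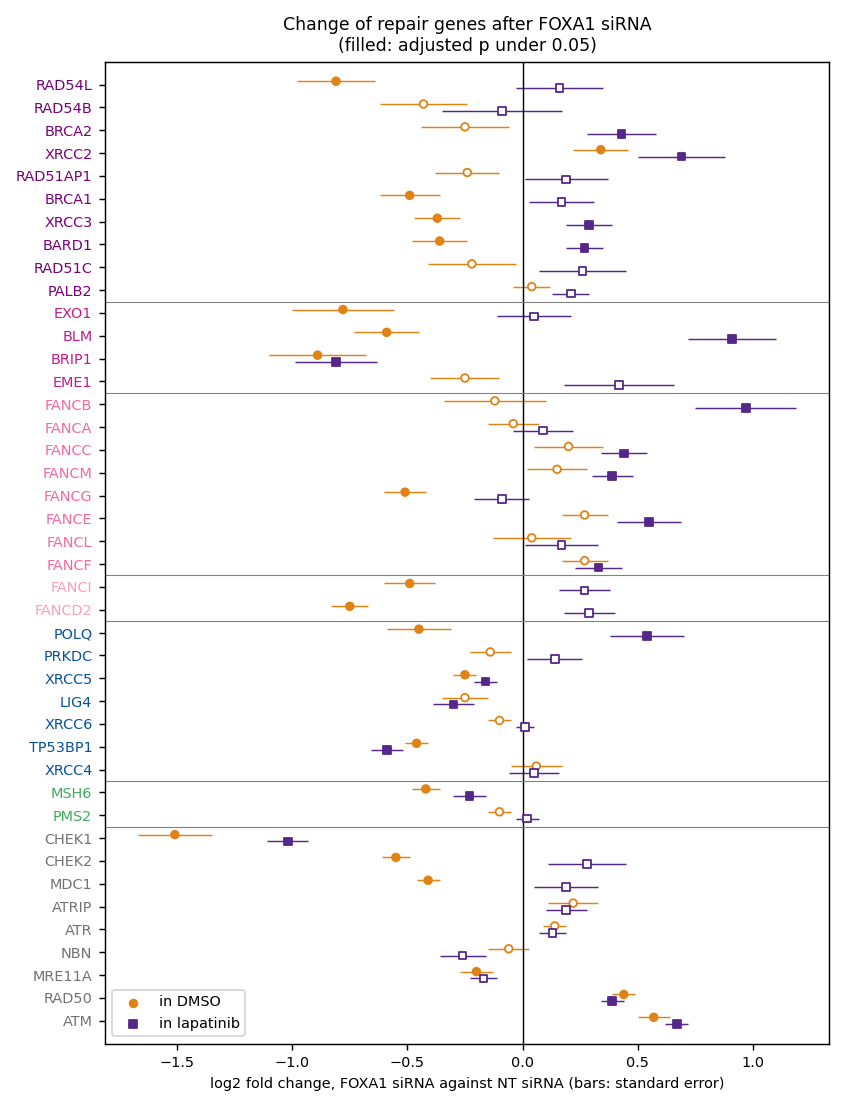
The log2 fold change of FOXA1 siRNA against NT siRNA is plotted with its standard error for each of the 42 genes in DMSO (orange circles) and in lapatinib (purple squares), filled where the adjusted p is under 0.05. Of the 24 homologous recombination and Fanconi genes, 17 lie left of 0 in DMSO and 21 right of 0 in lapatinib (BLM at -0.59 and 0.91), whereas CHEK1, BRIP1 and TP53BP1 lie left and ATM and RAD50 right in both. Over all genes tested, 6935 of 13694 were below 0 in DMSO and 6780 of 13727 above 0 in lapatinib.

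The higher genes in lapatinib were led by FANCB, at 45.4, 48.1 and 37.8 normalized counts with FOXA1 siRNA against 20.2, 25.5 and 20.4 with NT siRNA (log2 fold change 0.97 ± 0.22, adjusted p = 0.00787). BLM followed (0.91 ± 0.19, adjusted p = 0.00542), then XRCC2, at 94.0, 114 and 83.7 against 49.8, 70.7 and 57.2 (0.69 ± 0.19, adjusted p = 0.0189). The groups did not overlap for any of these. ATM was at 2808, 2803 and 2836 against 1718, 1849 and 1684 (0.67 ± 0.05, adjusted p = 4.19e-05), and RAD50 at 3275, 3334 and 3481 against 2595, 2486 and 2525 (0.39 ± 0.05, adjusted p = 0.000339). Both were higher in every library. POLQ was also higher (0.54 ± 0.16, adjusted p = 0.0224), as were the Fanconi core genes FANCE (0.55), FANCC (0.44), FANCM (0.39) and FANCF (0.33) and the recombination genes BRCA2 (0.43), XRCC3 (0.29) and BARD1 (0.27). With the replicate block PALB2, FANCD2, FANCI, PRKDC, ATR, CHEK2 and MDC1 were also higher (adjusted p = 0.00207 to 0.0196), each within all 3 replicate numbers. FANCB remained far below its level in NT DMSO (171, 115 and 197) in every library with both treatments.

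The genes lower with FOXA1 siRNA in lapatinib were CHEK1, BRIP1, TP53BP1, LIG4, MSH6 and XRCC5. CHEK1 reached its lowest level with both treatments, at 193, 206 and 220.4 normalized counts against 431, 401 and 408 with NT siRNA (log2 fold change -1.02 ± 0.09, adjusted p = 7.88e-05). BRIP1 was at 42.3, 53 and 43.9 against 79.5, 91.3 and 71.5, the only homologous recombination and Fanconi member to be lower (-0.81 ± 0.18, adjusted p = 0.00673). Neither gene's groups overlapped. TP53BP1 was at 1680, 1506 and 1642 against 2514, 2172 and 2501, all lower (-0.59 ± 0.07, adjusted p = 0.000418). The differences of LIG4 (-0.30 ± 0.09), MSH6 (-0.23 ± 0.07) and XRCC5 (-0.16 ± 0.05) were smaller. NBN was at 23010, 19100 and 22200 against 27780, 21780 and 26660, lower within each of the 3 replicate numbers although the groups overlapped, and was called with the replicate block (-0.26 ± 0.10, adjusted p = 0.0678, with the block 1.63e-05) and with DESeq2 (0.0387). MRE11A was likewise lower within each number and called with the block (-0.17 ± 0.06, with the block 0.00689). The calls of BRCA2, BARD1, XRCC2, XRCC3, FANCF, POLQ, LIG4, MSH6 and XRCC5 were each lost without 1 of several single libraries, which took in all 3 NT lapatinib and all 3 FOXA1 siRNA lapatinib libraries (adjusted p = 0.0519 to 0.155). XRCC3 also lost its call with DESeq2 (0.0994) and with no filter (0.0663), and BRCA2 (0.0949) and BARD1 (0.0645) lost theirs with all 12 libraries in 1 model.

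**Figure D4:**
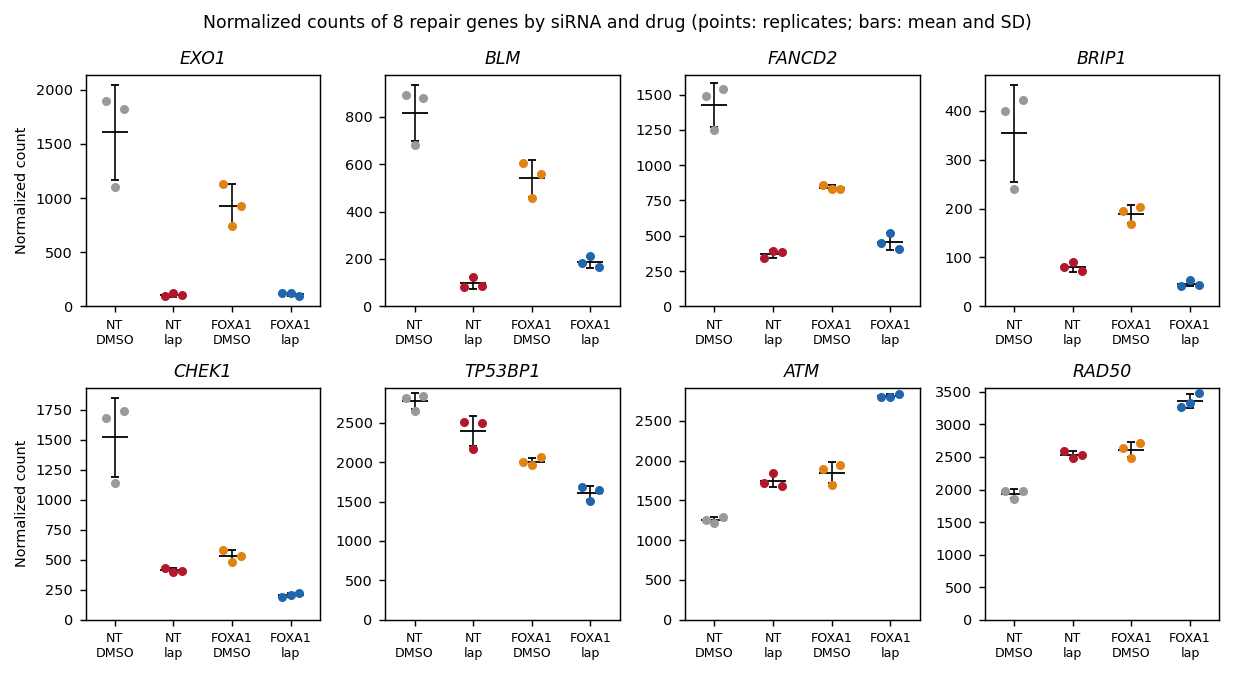
Normalized counts of 8 repair genes (vertical axes, starting at 0) are plotted for each siRNA and drug group, with 1 point per replicate and bars for the mean and SD of 3. EXO1, BLM and FANCD2 are highest in the NT DMSO group and lowest with lapatinib, BRIP1, CHEK1 and TP53BP1 are lowest in the group with both treatments, and ATM and RAD50 are highest in that group.

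Across the 4 groups, ATM thus stood at 1256 ± 42.7, 1750 ± 87.3, 1849 ± 135 and 2816 ± 18 (SD, n = 3; NT DMSO, NT lapatinib, FOXA1 siRNA DMSO and FOXA1 siRNA lapatinib, in that order). NT lapatinib and FOXA1 siRNA DMSO overlapped, and FOXA1 siRNA lapatinib lay above the rest. CHEK1 stood at 1521 ± 329, 413 ± 15.6, 532 ± 48.2 and 206 ± 13.6, with no overlap between any of the groups, so that FOXA1 siRNA lapatinib was the lowest and NT DMSO the highest. Neither gene had a called interaction (0.12 ± 0.09, adjusted p = 0.457, and 0.52 ± 0.20, adjusted p = 0.157). In TPM, ATM averaged 9.77 ± 1.36, 10.5 ± 1.26, 12.5 ± 0.18 and 16.4 ± 0.29 in the same order of groups.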

How the data were processed

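Polyadenylated RNA of 12 SKBR-3 libraries (4 groups of 3) was sequenced by the authors, who deposited 1 table per library with RSEM expected counts, TPM and FPKM per gene and a normalized column in signal units that was not used here. The study's methods name STAR for alignment to hg38 and Salmon for quantification, whereas the deposited columns are those of RSEM, which the submitters' processing notes name with DESeq2 1.12.3 and R 3.2.2. The use of strand in counting is not given in the sources used here, so overlapping and antisense genes are uncertain. The deposited expected counts were rounded to whole numbers, and 29 rows with no gene symbol were kept among the 20531. The deposited TPM were used for levels between genes and the FPKM were not used. Depth ran from 25749578 to 32271850 expected counts per library, and the lowest count of a member was 17 (FANCB).

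Differences were tested with edgeR 4.0.16 (R 4.3.3; TMM, quasi-likelihood test, Benjamini-Hochberg over all genes that reached 10 counts in 1 or more libraries of the fit), on the 6 libraries compared, or on all 12 for the interaction. Errors of log2 fold changes are standard errors, and those of means are SD (n = 3). DESeq2 1.42, no filter, all 12 libraries in 1 model, the replicate number as a block, other thresholds and leaving out libraries were alternatives. The script was tested on simulated data. The replicate numbers come from the sample titles. Deviations from group means correlated at 0.242 to 0.624 between libraries of the same number (18 pairs) and at -0.456 to 0.196 between different numbers (36 pairs). The latter are pulled below 0 because deviations within a group sum to 0. As these ranges did not overlap, the numbers were taken to pair the samples. The main fit leaves this pairing out, and the replicate block takes it in. All 42 members may be named; per-library values were given for the 2 members with the largest change per role, those called in the interaction, those that moved against the majority, and others chosen after their values were seen (BRIP1, FANCL, NBN, TP53BP1). The members and lists were chosen with earlier results of these data known. Gene positions and promoters came from RefSeq (GRCh38.p14), matched by gene ID. Tables were handled in Python 3.11.15 with pandas 2.3.3 and numpy 2.4.6.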

Additional observations from a re-analysis of the deposited data

Results flagged for a closer look

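For 8 members the response to lapatinib differed between cells with FOXA1 siRNA and cells with NT siRNA by edgeR's quasi-likelihood test of the interaction with Benjamini-Hochberg adjustment. The difference of the log2 responses, FOXA1 siRNA minus NT siRNA, was 1.52 for BLM, 1.07 for FANCD2, 1.01 for POLQ, 0.85 for CHEK2, 0.78 for FANCI, 0.68 for XRCC3, 0.65 for BARD1 and 0.62 for MDC1. All 8 fell with lapatinib under either siRNA, and each fell less with FOXA1 siRNA. Only FANCD2, BLM and XRCC3 kept the interaction call with any single library left out. The calls of POLQ, CHEK2, FANCI, BARD1 and MDC1 were each lost in some of these fits.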

How the results depend on the processing

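Over the refits of the 42 members in each comparison, 2912 of 3150 values kept their side of the threshold, 134 lost a call and 104 gained one. Of 210 member estimates, 23 took both signs among the refits, none of them called in the fit reported. With the replicate number as a block, 9 members were higher with FOXA1 siRNA in DMSO, 20 were higher in lapatinib, and the interaction was positive in 14 and negative in 1 (the added genes are named in the report). Over all genes tested, the block gave 4150 and 4200 higher in these comparisons, and 1561 interactions positive and 1292 negative. With the number 2 libraries left out of every group, added after seeing the data, 5 members were higher with FOXA1 siRNA in DMSO, the interaction was positive in 21 and negative in 1, and the median of the end-joining, mismatch repair and checkpoint set was -0.41 for lapatinib with NT siRNA and 0.00 for FOXA1 siRNA in lapatinib. Without genes used by more than 1 pathway, the former median was -0.42. With a log2 fold change of at least 1 required, 0 members were higher in each of the 4 comparisons, 14 were lower with lapatinib and FOXA1 siRNA, and 1 was lower with FOXA1 siRNA in DMSO and 1 in lapatinib. At an adjusted p under 0.01, 3 members were lower and 6 higher with FOXA1 siRNA in lapatinib, and 2 interactions were positive. Leaving out 1 library at a time gave 30 to 34 members lower and 3 higher for lapatinib with NT siRNA (medians -1.85 to -1.59 for homologous recombination and Fanconi, -0.43 to -0.34 for the other set). It gave 12 to 23 lower and 2 to 3 higher for FOXA1 siRNA in DMSO (medians -0.39 to -0.17 and -0.21 to -0.13), 3 to 7 lower and 7 to 13 higher in lapatinib (0.25 to 0.32 and 0.00 to 0.07), and 3 to 14 positive interactions. With FOXA1 siRNA, lapatinib lowered 29 to 32 members. The cause of these shifts was not tested, and shares of all genes called are not given for the fits that left out libraries. The lowest member count was 17, for FANCB.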

Other observations

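FOXA1 siRNA in DMSO was also read in gene lists outside the 42 members, beside 21.3% of all genes tested that fell and 21.9% that rose. Calls are those of edgeR at an adjusted p under 0.05. Among S phase and proliferation markers 16 of 20 fell (80.0%, median log2 fold change -0.46). Of 18 further end-joining and break response genes 9 fell and 3 rose (50% and 16.7%), of 21 base excision genes 7 fell (33.3%), and of 18 nucleotide excision genes 5 fell and 2 rose (27.8% and 11.1%; 5 rose with the replicate block). The p53 targets that damage can induce had 4 falls and 6 rises among 16 (25.0% and 37.5%). In lapatinib, where 22.2% of all genes tested were lower and 22.7% higher after FOXA1 siRNA, the S phase list had 7 genes lower and 3 higher (35.0% and 15.0%, median 0.00; 9 and 5 with the replicate block), while further recombination and Fanconi genes had 3 of 10 lower (30.0%) and none higher with edgeR or DESeq2, and none higher at an unadjusted p under 0.05.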
